A study of Mus musculus with 4 samples.

Results

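S100a6 and Anxa6, an S100 protein gene and an annexin gene whose signals differed about 2.27-fold and 2.10-fold in opposite directions after Brg1 knockdown, were compared with their families and binding partners in R1 cells, an established line of mouse embryonic stem cells. The set held 10 genes, namely S100a4, S100a6, S100a10, S100a11, Anxa1, Anxa2, Anxa4, Anxa5, Anxa6 and Anxa11, found by their symbol in the platform annotation. Of these, 8 had a probe set of their own, with 14 probe sets in all of the 22690 on the array, and 7 lay above the filter level and so belonged to the 7815 genes that were tested. The only probe set of S100a11, and likewise of Anxa11, is annotated to several genes, so no value is given for either. The set was chosen with the knockdown-against-control values of these genes known. Their values are therefore a description, without a test.

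Per the labels, 2 cultures were infected with lentivirus carrying a short hairpin RNA (shRNA) whose target was Brg1. Brg1, encoded by Smarca4, is an ATPase that drives SWI/SNF complexes in moving nucleosomes. The other 2 received an shRNA against GLUT4, the glucose transporter Slc2a4, as the control. All 4 were harvested 67 h after infection and were read on 1 Affymetrix array each. The comparison asks which genes depend on Brg1 in these cells. The labels say that infections were in duplicate and name 1 hairpin target per group, and they do not say whether the duplicates came from separate cultures before infection, so p-values measure the spread between these arrays only. With whole-culture RNA, a lower signal from fewer cells that express a gene and from less RNA per cell cannot be told apart.

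S100 proteins are small calcium sensors with EF-hand motifs that pair into dimers and, on binding calcium, expose a surface that grips target proteins. Annexins bind acidic phospholipids of membranes when calcium rises, and take part in membrane repair, endocytosis, exocytosis and the anchoring of actin. The families meet directly, since several S100 dimers bind the N-terminal tail of an annexin: S100A10 binds annexin A2, S100A11 binds annexin A1, and S100A6 binds annexins A2 and A11. In this way an S100 dimer can bridge annexins on membranes.

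The promoter windows of the 3 members with the largest higher signals are shown because these were higher together. Of the 10 members, 8 had an entry in the RefSeq promoter table (build GRCm38.p6), which holds 250 bases before and 50 bases after a start site. The windows lie at chr3:90612644-90612943 (plus strand) for S100a6, chr19:20390622-20390921 (minus strand) for Anxa1 and chr9:69453433-69453732 (plus strand) for Anxa2. Capitals mark matches on either strand to the AP-1 site TGACTCA, the E-box CACGTG, the GC box GGGCGG, the TATA box TATAAA and the CCAAT box.
S100a6: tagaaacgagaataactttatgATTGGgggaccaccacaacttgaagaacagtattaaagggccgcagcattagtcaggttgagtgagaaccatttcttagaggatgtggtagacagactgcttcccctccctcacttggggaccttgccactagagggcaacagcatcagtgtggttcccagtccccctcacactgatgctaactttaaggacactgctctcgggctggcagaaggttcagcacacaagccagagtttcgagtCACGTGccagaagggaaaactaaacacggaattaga
Anxa1: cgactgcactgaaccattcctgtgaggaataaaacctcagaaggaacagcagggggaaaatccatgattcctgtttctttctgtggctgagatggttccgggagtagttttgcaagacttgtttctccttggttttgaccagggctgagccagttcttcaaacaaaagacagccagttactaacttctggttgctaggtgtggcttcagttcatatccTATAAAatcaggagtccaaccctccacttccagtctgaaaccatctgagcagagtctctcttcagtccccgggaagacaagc
Anxa2: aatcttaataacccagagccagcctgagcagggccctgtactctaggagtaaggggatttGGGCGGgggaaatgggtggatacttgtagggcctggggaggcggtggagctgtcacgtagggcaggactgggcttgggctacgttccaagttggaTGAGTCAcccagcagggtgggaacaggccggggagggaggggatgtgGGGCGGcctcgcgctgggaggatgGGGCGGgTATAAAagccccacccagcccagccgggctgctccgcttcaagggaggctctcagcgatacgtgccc
The S100a6 window held 1 E-box, which begins 15 bases into the transcript, and 1 CCAAT box on the opposite strand at -228. The Anxa1 window held a TATA box at -32 and none of the other motifs. The Anxa2 window held a TATA box at -17, 3 GC boxes and 1 AP-1 site at -95. No motif was shared by all 3 windows. Among 32851 promoter windows of this length, 5.2% held the AP-1 site, 7.15% the E-box, 35.7% the GC box, 13.6% the TATA box and 37.4% the CCAAT box. The matches describe letters only, and these motifs overlap none of each other in the 3 windows.

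The arrays shared a common scale, with a trimmed mean signal of 200.1 units on each (2% trimmed per end) and medians of 46.6 and 48.2 units in the control and from 49.5 units in the knockdown. Depth has no counterpart on arrays, and 2 arrays per group limit the precision. Smarca4 gave 652.1 and 621.5 units in the knockdown against 1186.6 and 1213.6 in the control, so the labelled target was lower in both knockdown arrays. Slc2a4 lay below the filter level of 23.9 units. Values below are deposited signal units, and differences are knockdown minus control on the scale of log2(signal + 20), which understates the change of dim genes. Each ± after a member's difference is a standard error (SE) from its own 2 arrays per group, and after a tested gene's difference it is limma's SE.

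S100a6, or calcyclin, a growth-regulated S100 protein, was higher in the knockdown. Its signal was 604.7 and 621.6 in the knockdown and 284.5 and 236.4 in the control. The knockdown arrays lay close together and the groups did not overlap. The log2 difference was 1.18 ± 0.13, or 2.27-fold with the 20 units added, rank 38 from the top among 7815 tested genes.

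S100a10, or p11, differs from other S100 proteins in binding its target without calcium and is the partner of annexin A2. The probe set used for the gene gave 1023.0 and 1001.5 in the knockdown against 771.4 and 733.4 in the control. Here the groups did not overlap, the log2 difference was 0.42 ± 0.04, and the fold was 1.34. A second probe set of S100a10, of the _x_at kind that can bind several transcripts, ran the other way, with 493.3 and 331.3 in the knockdown against 564.9 and 499.3 in the control. Its log2 difference was -0.38 ± 0.29, with knockdown arrays far apart and 1 of them just under the control range. The direction of S100a10 therefore depends on the probe set. S100a4, which binds non-muscle myosin and is often used as a fibroblast marker, was at 0.6 and 11.3 in the knockdown against 2.6 and 3.0 in the control. Both groups lay below the filter level and overlapped, so S100a4 has no readable difference here.

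Anxa2, whose protein forms the heterotetramer with S100A10 at the plasma membrane, had the largest difference among the members. It gave 475.3 and 537.4 in the knockdown and 230.8 and 177.8 in the control. The log2 difference was 1.24 ± 0.19, or 2.36-fold, and the groups did not overlap. Its other 2 probe sets stayed below the filter level on average, at 0.3 to 21.8 units over the 4 arrays, and carry little information on the gene. S100a10 and Anxa2, which encode the parts of that complex, thus had differences of 0.42 and 1.24 at the probe sets used.

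Anxa1, an annexin known for limiting inflammation through formyl peptide receptors, was also higher. Its signal was 302.1 and 338.9 in the knockdown and 123.9 and 156.4 in the control. The lowest knockdown array was above the highest control array, with a log2 difference of 1.09 ± 0.17, or 2.13-fold. Anxa1, Anxa2 and S100a6 thus had differences of 1.09 to 1.24, with SEs of 0.13 to 0.19, so their order among themselves is not resolved by these arrays.

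Anxa4, an annexin of epithelial cells, showed a smaller difference at both of its probe sets. The brighter gave 123.8 and 111.9 in the knockdown against 82.7 and 84.4 in the control, a log2 difference of 0.41 ± 0.06. The other gave 95.8 and 90.8 against 63.5 and 75.8, a difference of 0.34 ± 0.10. Neither probe set overlapped between the groups, and both had the knockdown higher. Anxa5, the annexin widely used to stain exposed phosphatidylserine, gave 88.1 and 88.8 in the knockdown against 62.4 and 68.9 in the control. Its log2 difference was 0.34 ± 0.06, or 1.27-fold, again without overlap. Anxa4, Anxa5 and S100a10 had folds of 1.27 to 1.34, below the 1.5-fold used here for a larger difference.

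Anxa6 was the member that ran the other way. Annexin A6 is the largest of the vertebrate annexins, with a duplicated core, and is known to bring the Ras GTPase-activating protein encoded by Rasa1 to membranes and to bind late endosomes. Its brightest probe set gave 113.3 and 100.4 in the knockdown against 268.8 and 224.1 in the control. Both knockdown arrays lay far below both control arrays, with no overlap. The log2 difference was -1.07 ± 0.14, or 2.10-fold lower, rank 9 from the bottom of the 7815 tested genes.

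The other Anxa6 probe sets pointed the same way. The second gave 99.0 and 65.7 in the knockdown against 150.0 and 146.5 in the control, a log2 difference of -0.74 ± 0.24. The third was dim, with 3.6 and 3.1 against 13.2 and 6.0, all below the filter level, and its difference of -0.33 ± 0.18 has little weight at that brightness. In each of the 3 probe sets the knockdown arrays lay below both control arrays. The ratio of mean signals, knockdown over control, was 0.434 at the brightest, 0.556 at the second and 0.349 at the dim one, so the order of sizes depends on the 20 units added.

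**Figure D1:**
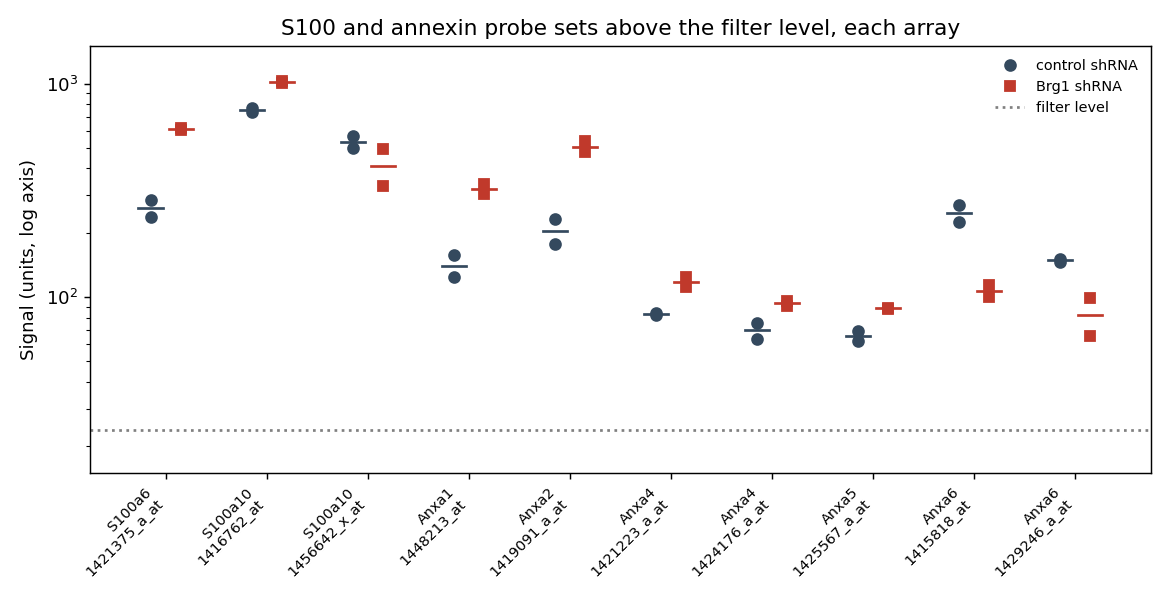
Signal in deposited units (log axis) of the 10 member probe sets above the filter level of 23.9 units (dotted line), with circles for the 2 control arrays, squares for the 2 Brg1 shRNA arrays and short lines for group means. Knockdown squares lie above control circles for S100a6, Anxa1, Anxa2, Anxa4, Anxa5 and the first S100a10 probe set, and below them for both Anxa6 probe sets and the second S100a10 probe set.

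Among the 7 members above the filter level, 6 were higher and 1 was lower in the knockdown with no overlap between the groups. Of all tested genes, 34.3% were higher and 25.9% lower without overlap, 60.2% in all. Counting only differences of 1.5-fold or more without overlap, 3 were higher (S100a6, Anxa1, Anxa2) and 1 was lower (Anxa6). Of all tested genes, 4.57% were higher and 1.61% lower by that rule, 6.18% in all. The members were chosen by this same contrast, so nothing is read from either count. The median log2 difference of the 7 was 0.42, beside 0.04 over all tested genes. Scaling each array to its hybridisation spike-ins instead moved the median of all tested genes to 0.33. With that scaling the differences of S100a6 and Anxa6 were 1.49 and -0.78, so each kept its sign.

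**Figure D2:**
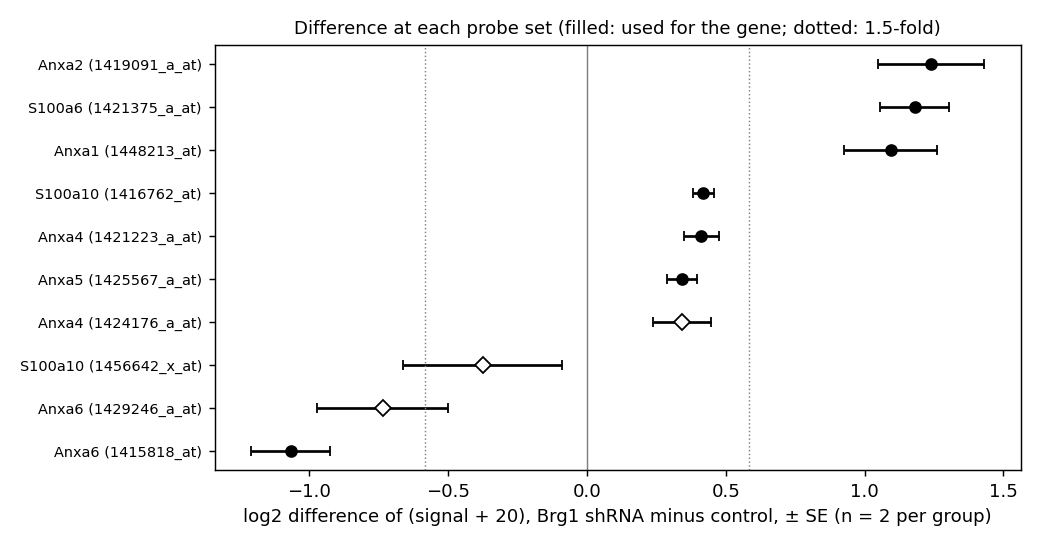
Log2 difference of (signal + 20), knockdown minus control, at each of the 10 member probe sets above the filter level, with bars of ± 1 SE (n = 2 per group), filled circles for the probe set used for a gene, open diamonds for the others and dotted lines at 1.5-fold. S100a6, Anxa1 and Anxa2 lie from 1.09 to 1.24, Anxa6 at -1.07 and -0.74, and the S100a10 probe sets on either side of 0.

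The rest of both families was mostly too dim to test. Of 12 further S100 genes, 10 had a probe set of their own and 2 of these reached the filter level. S100a13, which takes part in the release of FGF1, gave 39.1 and 34.2 in the knockdown against 20.5 and 19.6 in the control, a log2 difference of 0.50 ± 0.17 (limma's SE; adjusted p = 0.0767). S100a16 gave 56.7 and 75.6 against 48.2 and 48.6, a difference of 0.32 ± 0.16 (limma, adjusted p = 0.198). Neither passed the test, although the knockdown arrays were the higher in both genes. Both control arrays of S100a13 lay below the filter level, so it was tested only through its knockdown signals. S100a1, S100a3, S100a5, S100a8, S100a9, S100a14, S100b and S100g lay below the filter level.

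Of the 6 further annexins, Anxa3 and Anxa7 were tested. Anxa3 gave 143.7 and 146.4 in the knockdown against 114.4 and 119.8 in the control, a log2 difference of 0.27 ± 0.12 (limma, adjusted p = 0.151). Anxa7, or synexin, gave 641.4 and 684.9 against 683.4 and 649.7, with overlapping groups and a difference of -0.01 ± 0.09 (limma, adjusted p = 0.962). Anxa8, Anxa9, Anxa10 and Anxa13 were below the filter level. With limma, 0 of these 4 family genes passed the adjusted threshold, where 14.4% of all tested genes did, 9.33% higher and 5.09% lower. At the looser threshold of an unadjusted p under 0.05, limma passed 2 of them (S100a13 and Anxa3). The share of all tested genes at that looser threshold is not given here, so nothing is read from this count. S100a13 passed when the intensity trend was left out (adjusted p = 0.0328), with the mean of all probe sets (0.0396) and with the spike-in scaling (0.0214). Its control arrays lay below the filter level, so these passes carry little weight. Because the members were picked from the same families with these data known, the further genes are not an unselected sample of them.

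S100a6 lies in a cluster of S100 genes on chromosome 3, and the 3 nearest protein-coding genes on each side in the RefSeq table are S100a2, S100a4 and S100a5 on one side and S100a7a, S100a8 and S100a9 on the other. The mean signals of S100a4 were 5.95 in the knockdown and 2.80 in the control, those of S100a5 were 5.75 and 7.85, those of S100a8 1.95 and 4.65, and those of S100a9 4.90 and 6.75. All 4 lay below the filter level in both groups, while the means of S100a6 were 613.2 and 260.4 units. S100a2 and S100a7a had no probe set of their own. Next to Anxa6 on chromosome 11 the tested neighbours were Hint1, Gpx3, Tnip1 and Gm2a. The log2 signal of Hint1 fell by 0.26 ± 0.08 (adjusted p = 0.0468 with limma). That is just under the threshold of 0.05, and values of Hint1 under the alternative settings are not given here. Gpx3 (0.30), Tnip1 (-0.32) and Gm2a (0.19) did not pass the test, with limma's adjusted p between 0.109 and 0.385.

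The partners of the S100 proteins were called at a share close to that of all tested genes. The list held 25 proteins reported to bind S100A6, S100A4, S100A10 or S100A11, of which 16 were tested. With limma, 1 rose, 2 fell and 13 did not pass. That is 18.8% called in a list of 16 genes, where 14.4% of all tested genes were, 9.33% higher and 5.09% lower. The list median was -0.10, beside 0.04 over all tested genes.

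Ahnak, a giant scaffold protein held at the membrane by S100A10 and annexin A2, was the gene that rose. It gave 368.7 and 427.6 in the knockdown against 202.9 and 209.3 in the control, a log2 difference of 0.88 ± 0.11 (limma, adjusted p = 0.000972). The groups were well apart at this probe set, but with the mean of its probe sets the difference was 0.34 and did not pass (adjusted p = 0.130).

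Cacybp, the calcyclin-binding protein named for its binding of S100A6, fell while S100a6 itself was higher. Its signal was 1600.9 and 1465.7 in the knockdown against 1880.0 and 1914.3 in the control, a log2 difference of -0.30 ± 0.07 (limma, adjusted p = 0.0266). Fkbp4, an Hsp90 co-chaperone that S100A6 also binds, gave 1683.0 and 1766.1 against 2153.3 and 2166.9, a difference of -0.32 ± 0.07 (limma, adjusted p = 0.0157). Neither pair of groups overlapped, but with the spike-in scaling the differences were 0.02 for Cacybp and 0.003 for Fkbp4, so both falls hold relative to the deposited scale only. Cacybp also missed the threshold when knockdown replicate 2 was left out (adjusted p = 0.154), and likewise for either control array (0.0512 and 0.0662). Fkbp4 missed it when knockdown replicate 1 was left out (0.0569). A model with no intensity trend ended both calls (0.109 for Cacybp and 0.0852 for Fkbp4). The second probe set of Fkbp4 gave 0.18 (adjusted p = 0.536). Plgrkt, a plasminogen receptor, had a difference of -0.39 ± 0.15 and did not pass (limma, adjusted p = 0.104).

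Other partners are named here for their known roles, after their values were seen. Sugt1, a co-chaperone that binds S100A6, had a log2 difference of -0.10 ± 0.08 (limma, adjusted p = 0.441). Hltf, a SWI/SNF-related ATPase reported to bind the complex of S100A10 and annexin A2, had a difference of -0.04 ± 0.09 (limma, adjusted p = 0.807). Myh9, the non-muscle myosin bound by S100A4, had a difference of -0.28 ± 0.11 (limma, adjusted p = 0.117). None of these 3 passed the test.

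Among the partners of annexins, the genes past the test all rose. Of 14 listed genes 9 were tested, and with limma 3 rose, 0 fell and 6 did not pass. That is 33.3% called in a list of 9 genes, where limma called 14.4% of all tested genes, 9.33% higher and 5.09% lower. The list median was 0.18, beside 0.04 over all tested genes.

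Itgb5, the integrin beta 5 chain that binds annexin A5, gave 453.4 and 464.6 in the knockdown against 272.1 and 261.4 in the control. The log2 difference was 0.74 ± 0.09 (limma, adjusted p = 0.00123). Sptan1, alpha-II spectrin of the membrane skeleton, gave 1220.1 and 1278.2 against 730.2 and 852.4, a difference of 0.65 ± 0.09 (limma, adjusted p = 0.00219). Sri, or sorcin, an EF-hand protein that binds annexin A7, gave 259.0 and 289.0 against 173.6 and 183.9, a difference of 0.56 ± 0.11 (limma, adjusted p = 0.00953). In all 3 genes both knockdown arrays lay above both control arrays. With the second probe set, Itgb5 (0.33, adjusted p = 0.118) and Sri (0.54, adjusted p = 0.0871) kept their sign and lost their call.

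Egfr, the receptor whose signalling annexins A1 and A6 are known to modulate, was at 66.7 and 86.1 in the knockdown against 42.6 and 52.9 in the control. Its log2 difference of 0.51 ± 0.16 missed the threshold (limma, adjusted p = 0.0663). It passed with the second probe set (0.71, adjusted p = 0.0239), the spike-in scaling (0.00844), the replicate block (0.0464) and with knockdown replicate 1 left out (0.0320), so its call depends on the setting. Rasa1, the Ras GTPase-activating partner of annexin A6, and Pdcd6, or ALG-2, the EF-hand partner of annexin A11, were looked at after their values were seen. Rasa1 gave 235.9 and 225.4 against 195.7 and 206.9, a difference of 0.18 ± 0.11 (limma, adjusted p = 0.277), while Anxa6 had -1.07. Pdcd6 gave 856.3 and 878.3 against 861.8 and 846.1, with overlapping groups and a difference of 0.02 ± 0.08 (limma, adjusted p = 0.877).

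Other EF-hand calcium sensors were compared as a background for S100a6. Of 20 tested, 3 rose, 0 fell and 17 did not pass (median 0.12). That is 15% called, close to the 14.4% of all tested genes (9.33% higher and 5.09% lower). Actn4, a calcium-binding actin cross-linker, rose by 0.34 ± 0.07 (limma, adjusted p = 0.0111), from 1785.7 and 1842.0 to 2264.9 and 2350.4 units. Capn1, the large subunit of calpain 1, rose by 0.54 ± 0.14 (adjusted p = 0.0287), and Hpca, or hippocalcin, by 0.65 ± 0.17 (adjusted p = 0.0365). Actn1 had a difference of 0.33 ± 0.11 and did not pass (adjusted p = 0.0819). Capn1 missed the threshold whichever array was left out, and also with its second probe set (0.24, adjusted p = 0.359) and the mean of its probe sets (0.39, adjusted p = 0.0608). Hpca missed it without knockdown replicate 2 or control replicate 1 and with quantile normalization (0.0503). Actn4 missed it without knockdown replicate 2 and without the intensity trend (0.0731).

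Genes of membrane repair and phosphatidylserine binding, functions that annexins share, moved both ways. Of 14 tested, 2 rose, 2 fell and 10 did not pass with limma (median 0.04). That is 28.6% called in a list of 14 genes, where 14.4% of all tested genes were, 9.33% higher and 5.09% lower. Myof, or myoferlin, a membrane-fusion protein with C2 domains, rose from 15.8 and 12 in the control to 47.1 and 34.4, a log2 difference of 0.84 ± 0.19 (limma, adjusted p = 0.0180). Its control arrays lay below the filter level, so it was tested only through its knockdown signals and the size depends on the pseudocount. Cpne2, a copine that binds phospholipids in calcium, rose by 0.74 ± 0.21 (adjusted p = 0.0401). Esyt1, a tether between the endoplasmic reticulum and the plasma membrane, fell by 0.43 ± 0.11 (adjusted p = 0.0306), and with the spike-in scaling its difference was -0.13 and did not pass (adjusted p = 0.685). Vps4b, the ATPase of ESCRT-III, fell by 0.31 ± 0.08 (adjusted p = 0.0359), and its sign turned with the spike-in scaling (0.01). Leaving out single arrays ended these calls for Cpne2 without either knockdown array or control replicate 2, for Esyt1 likewise, for Vps4b without knockdown replicate 2 or either control array, and for Myof without control replicate 2. A model with no intensity trend also ended those of Cpne2 (0.0643), Esyt1 (0.0535) and Vps4b (0.102).

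**Figure D3:**
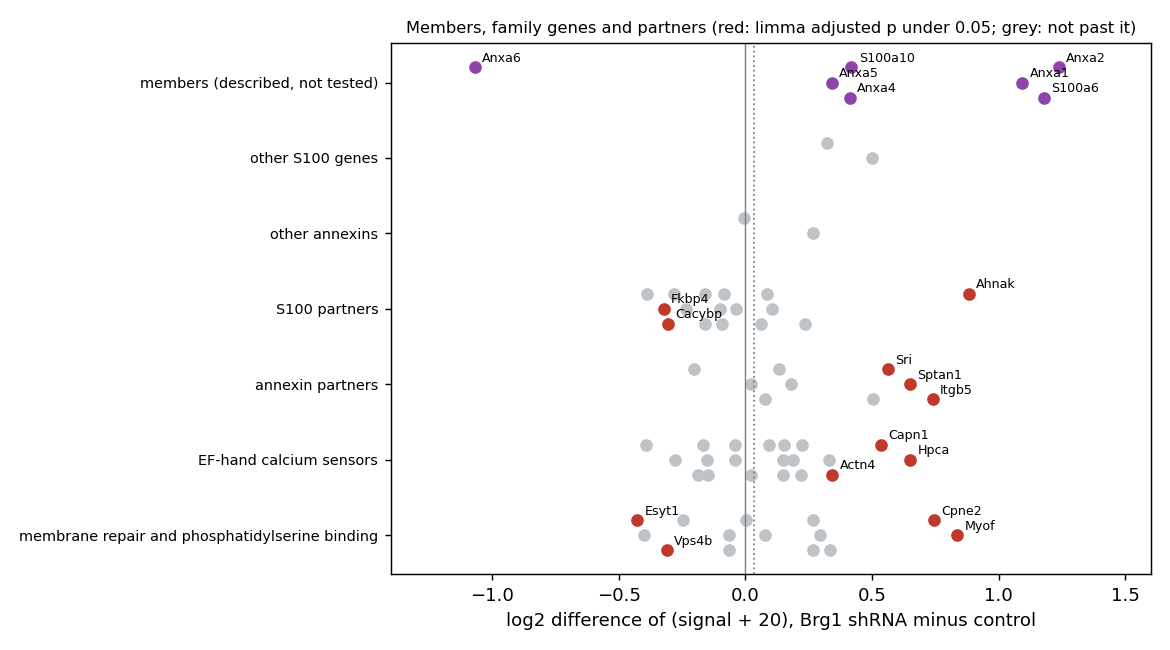
Log2 difference of (signal + 20), knockdown minus control, of each gene above the filter level, in rows for the 7 members (purple, described and not tested), the further family genes, the partner lists and the related lists; red points passed limma at an adjusted p under 0.05, grey ones did not, points are spread vertically for legibility, and the dotted line is the median of all tested genes, 0.04. The 3 called annexin partners lie from 0.56 to 0.74, while Cacybp and Fkbp4 lie at -0.30 and -0.32.

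The tested genes outside the members whose 4 values ran closest to those of S100a6 were Abcb1a, Itgb4 and Msx1. Likeness was the Euclidean distance between log2 values over the 4 arrays after centring each gene, which was 0.11 for Abcb1a and 0.12 for Itgb4 and Msx1. Abcb1a, a drug efflux pump, gave 131.3 and 130.2 in the knockdown against 47.8 and 43.0 in the control. Itgb4, the integrin beta 4 chain, gave 77.6 and 80.4 against 25.5 and 16.3, and Msx1, a homeobox gene, 115.7 and 114.4 against 51.5 and 37.7. Closest to Anxa6 were Acot1, an acyl-CoA thioesterase, at a distance of 0.08, Psat1, of serine synthesis, at 0.13, and Mgst1, a membrane glutathione transferase, at 0.15. Acot1 gave 63.3 and 54.2 in the knockdown against 153.6 and 138.6 in the control. Over 4 arrays in 2 groups this measure mostly reads the size of the group difference.

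Markers of the cell types that the cultures could hold were read beside these values, because S100a6, Anxa1 and Anxa2 are also expressed in fibroblasts and epithelia. All 10 embryonic stem cell markers lay above the filter level, with summed signals of 20047.8 to 20437.4 in the knockdown and 18155.9 to 18484.3 in the control, and with limma 4 of them rose (Nanog, Klf2, Fgf4 and Esrrb) and 6 did not pass. Among those 6, picked out after their values were seen, Sox2 was lower without overlap at 1515.8 and 1272.4 against 1643.8 and 1608.2 (-0.22, limma, adjusted p = 0.125), and Pou5f1 overlapped at 2555.8 and 2417.8 against 2367.4 and 2579.2. Of all tested genes, 9.33% rose and 5.09% fell, the share beside which each marker count is set. Of 20 fibroblast markers, 14 lay below the filter level, among them Col1a1, Col1a2, Col3a1, Lum, Dcn, Pdgfra, Pdgfrb and Twist1, and none was listed at 0. Their summed signal was 2052.7 to 2073.6 in the knockdown and 1399.8 to 1588.8 in the control. Without Vim, left out after its values were seen, the sums of the other 19 were 900.1 and 908.2 against 895.3 and 1031.9. These knockdown sums lay within the control range, but a large part of them is Tagln, which was lower in the knockdown. Nothing is therefore read from the sum without Vim. Vim, the intermediate filament vimentin, rose from 504.5 and 556.9 to 1152.6 and 1165.4 and was the 1 of 6 tested markers that passed (limma, adjusted p = 9.54e-05). Tagln gave 360.5 and 360.3 against 402.1 and 504.1 (-0.31, limma, adjusted p = 0.103) and Thy1 20.8 and 29.0 against 36.7 and 48.3 (-0.48, adjusted p = 0.108), both lower without overlap and not past the test. Acta2 was at 103.7 and 119.5 against 92.2 and 77.5 (0.33, adjusted p = 0.139), higher without overlap and not past the test.

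Of 10 trophectoderm markers, 5 were tested and 3 rose (Krt8, Tfap2c and Hand1), while Cdx2, Gata3, Elf5, Krt7 and Ascl2 lay below the filter level. Their summed signal was 1485.1 to 1588.1 in the knockdown and 918.8 to 976.0 in the control. Of 10 primitive endoderm markers, 4 were tested, of which Foxa2 rose and Lama1 fell, with summed signals of 534.3 to 595.2 in the knockdown and 550.7 to 597.0 in the control. Gata4, Gata6, Sox17, Sox7, Afp and Ttr lay below the filter level. The control arrays of Hand1 (18.9 and 21.6) and Foxa2 (9.9 and 16.3) also lay below it. These 2 genes were tested only through their higher knockdown signals, so their calls carry little weight. The part of these marker differences in the higher S100a6, Anxa1 and Anxa2 signals was not tested.

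**Figure D4:**
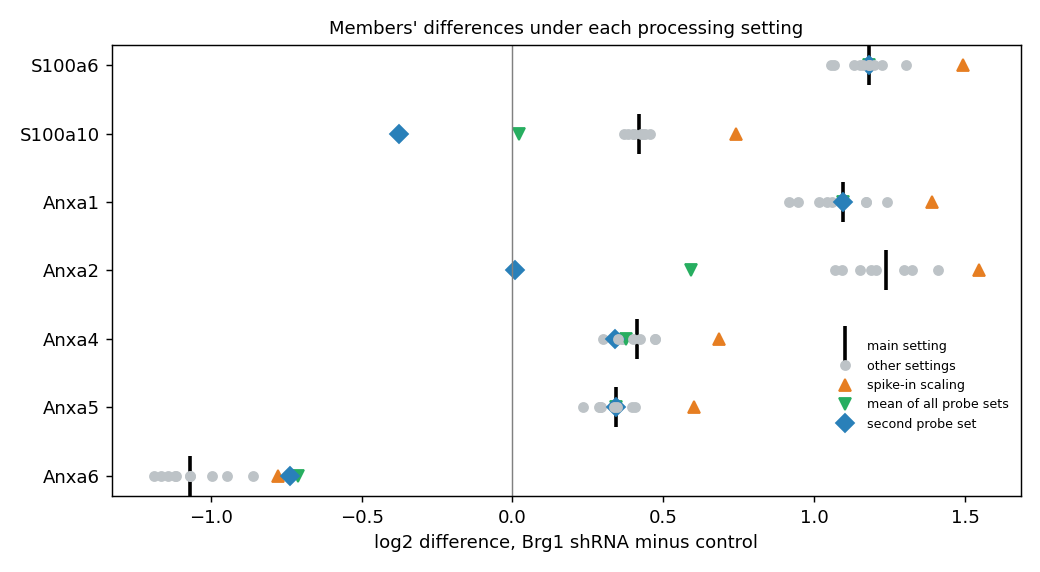
Log2 difference, knockdown minus control, of the 7 members above the filter level under each processing setting, with black bars for the values reported, triangles for the spike-in scaling, inverted triangles for the mean of all probe sets, diamonds for the second probe set and grey points for the rest. S100a6 lies from 1.06 to 1.49 and Anxa6 from -1.19 to -0.71, while S100a10 runs from -0.38 to 0.74.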

How the data were processed

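RNA from 2 knockdown and 2 control cultures was read on Affymetrix arrays. The deposited values are 1 linear intensity per probe set and array; per the submitters' processing notes the authors used GCOS, and for its version, algorithm and scaling the entry is: not given in the sources used here. Probe sets were named from the platform annotation: 20380 had 1 gene, 691 several (left unnamed) and 1555 none, besides 64 controls. Symbols were updated by Entrez ID through RefSeq (GRCm38.p6), which held 20351.

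Intensities were taken as log2(signal + 20) without further normalization. Each gene was represented by its brightest probe set (_x_at only where no other existed), and 7815 of 12393 genes at or above the 40th percentile (23.9 units) were tested with limma 3.58.1 in R 4.3.3 (lmFit, eBayes with an intensity trend, two-sided, Benjamini-Hochberg over all tested genes, threshold 0.05). The model was tested on simulated data.

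The members and lists were chosen with earlier results of these data known. Named genes are the members, up to 4 tested genes per list with the smallest p, the 3 nearest patterns and the 3 genomic neighbours per side. The shRNA targets, and family genes and markers below the filter level, are named besides. Others are said to be outside the rule. Alternatives changed the pseudocount, filter, scaling, variance trend, probe set, threshold and replicate block, and left out each array. No detection calls were used.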

Additional observations from a re-analysis of the deposited data

How the results depend on the processing

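The difference of S100a6 kept its sign under the 9 of 13 alternatives that can change its value. That of Anxa6 kept its sign under the 11 of 13 that can. With groups that do not overlap, leaving out an array or changing the pseudocount could not turn either sign. The signs were open only to the scaling settings and, for Anxa6, to the choice of probe set. S100a6 moved by more than the spread between replicates with the spike-in scaling (1.49). Anxa6 did so with a pseudocount of 64 (-0.86), the spike-in scaling (-0.78), the mean of all probe sets (-0.71) and the second probe set (-0.74). Leaving out each array gave 1.06 to 1.30 for S100a6 and -1.19 to -0.95 for Anxa6. S100a10 reversed with its second probe set (-0.38), and Anxa2, whose second probe set is near 0 signal, gave 0.01 there and 0.59 when its probe sets were averaged. The count of members with 1.5-fold or more and no overlap went from 4 to 7 with the spike-in scaling, which moves the median of all tested genes up.

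All tested genes changed numbered 1127, and 433 without the filter, 726 with the second probe set, 393 at an adjusted p under 0.01, and 601 to 1171 when an array was left out, lowest without knockdown replicate 2 (601) and control replicate 1 (719). Median centring gave 622 higher and 598 lower calls, against 729 and 398; with the spike-in scaling 1423 and 31; without the intensity trend 545 and 219. The 3 S100 partners called became 1 without the filter, with the spike-in scaling, without the intensity trend and at 0.01. Annexin partners called ranged from 2 to 4 over the alternatives. The 7 calcium sensor and membrane repair genes called became 1 without the filter, 3 with the filter at the 60th percentile, 3 without the intensity trend and 0 at 0.01, and 1 to 5 when an array was left out, with 1 without knockdown replicate 2, 4 without control replicate 1 and 3 without control replicate 2. The 0 further family genes called became 1 with the spike-in scaling, without the intensity trend, or when probe sets were averaged. Where values or construction do not show it, the cause was not tested.

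Same-numbered arrays share only a number, and their deviations correlated at -0.14. With the replicate block, 1187 genes were called, with 3 S100 partners, 4 annexin partners, 8 calcium sensor and membrane repair genes and 0 further family genes, and the differences of S100a6 (1.18) and Anxa6 (-1.07) are the same by construction. A crossed replicate block, chosen after seeing the data, called 1478. Signals near background limit S100a4 and most further S100 genes and annexins.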
